A study of Mus musculus with 2 samples.

Results

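The microRNA family of miR-15, miR-16, miR-195 and miR-497 was described in the adrenal gland, an endocrine organ with a steroid-producing cortex around a medulla that secretes catecholamines. The group was 14-day-old male B6CASTF1/J mice, an F1 hybrid strain, with 2 microRNA-seq libraries numbered as biological replicates 1 and 2. Each library came from its own biosample. Both biosamples list 3 males and point to 1 common donor record, and the labels do not say whether a library is a pool of animals or whether the libraries come from separate ones. There was no second condition, so the data give levels and the difference between the libraries, not an effect of a treatment. The members, chosen by gene symbol in GENCODE M21, were 6 of the 2202 miRNA genes counted, namely Mir15a, Mir16-1, Mir15b, Mir16-2, Mir195a and Mir497. They were selected as a seed family with their levels in these libraries already known, so the levels are a description and no test was made on them.

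A microRNA is cut from a hairpin precursor, and either arm of the hairpin can be loaded into an Argonaute protein. Bases 2 to 8 of the loaded strand, the seed, pair with matching sites in messenger RNAs and lower their translation and stability. The miR-15/16 family is known for restraining the cell cycle through cyclins and other regulators of the G1 phase, and Bcl2, an inhibitor of apoptosis, is a textbook target. In humans the MIR15A and MIR16-1 locus is often deleted in chronic lymphocytic leukaemia, and in the mouse miR-195 has been linked to the withdrawal of heart muscle cells from the cell cycle.

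The 5p arms are shown because the shared seed defines the family and the bases after it separate the genes. Capitals mark the seed, the sequences are from RefSeq on GRCm38.p6, and all 6 genes matched an entry there.
miR-15a-5p of Mir15a: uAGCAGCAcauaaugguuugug
miR-15b-5p of Mir15b: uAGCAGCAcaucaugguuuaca
miR-16-5p of Mir16-1 and Mir16-2: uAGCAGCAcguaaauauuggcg
miR-195a-5p of Mir195a: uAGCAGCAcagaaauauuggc
miR-497a-5p of Mir497: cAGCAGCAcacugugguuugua

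All 6 genes carried 1 seed, AGCAGCA, and the identical run went on to base 9. Counted from the 5′ end over 21 positions, 10 positions were the same in all 6. The miR-195a arm matched the miR-16 arm at 19 of 21 positions. Those of Mir15a and Mir15b matched at 18, and that of Mir497 matched Mir15a at 17 and miR-16 at 11. Thus miR-195a was nearest in sequence to miR-16, and both miR-15b and miR-497a were nearest to miR-15a. Mir15b and Mir497 matched each other at 15 positions, as did Mir15a and miR-16.

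Mir16-1 and Mir16-2 make the same 22-base 5p arm from separate chromosomes. Their hairpins are printed next, with the stretch they share in capitals.
Mir16-1: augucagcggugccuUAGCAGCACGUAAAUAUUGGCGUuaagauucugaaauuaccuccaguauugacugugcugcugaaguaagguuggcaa
Mir16-2: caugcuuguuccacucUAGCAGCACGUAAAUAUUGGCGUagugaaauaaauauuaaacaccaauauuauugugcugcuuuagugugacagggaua

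The shared stretch is 23 bases long, the 22 bases of miR-16-5p and 1 base after it. A read that stays within it matches both genes, and reads that mapped to several places were counted in no gene. The counts of Mir16-1 and Mir16-2 therefore come from reads that reach beyond this stretch or from the 3p arms, which match at 12 of 22 positions, and miR-16 may be counted too low in both. How many miR-16 reads were set aside was not tested. Against all counted hairpins, the longest stretch of Mir195a found in another gene was 16 bases, in Mir195b, that of Mir15a was 13 and that of Mir15b was 12. Over the whole annotation, with both strands searched, 142 of the 1628 distinct mature sequences found in a hairpin (8.72%) were found in 2 or more hairpins. This count also holds sequences shared only by genes on opposite strands of 1 locus. Mir497 lies opposite Mir497b, so its 84 bases are also present there in reverse, but it shared at most 12 bases with any hairpin on its own strand.

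The 6 genes form 3 pairs of neighbours, each pair on 1 strand. Positions are on mm10. Mir15a (chr14:61632027-61632110) and Mir16-1 (chr14:61631880-61631972) lie on the minus strand within Dleu2, a long non-coding RNA gene, with 54 bases between them. Mir15a overlaps no exon of Dleu2, and 13 of the 93 bases of Mir16-1 overlap one. Mir15b (chr3:69009772-69009835) and Mir16-2 (chr3:69009902-69009996) lie 66 bases apart on the plus strand in an intron of Smc4, which encodes a subunit of the condensin complex that compacts mitotic chromosomes. Mir497 (chr11:70234717-70234800) and Mir195a (chr11:70235042-70235135) lie 241 bases apart on the plus strand, and the annotation places no protein-coding or long non-coding gene over them.

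**Figure D1:**
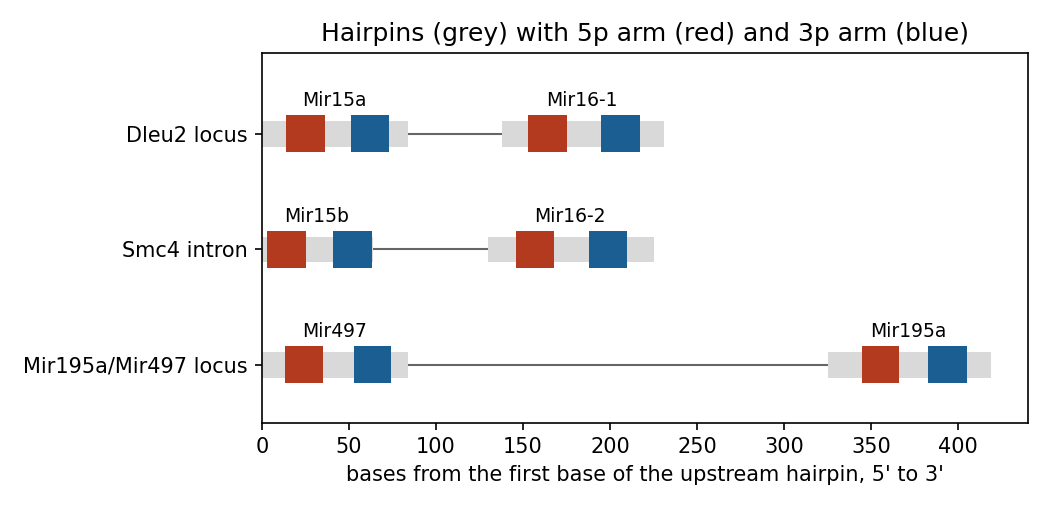
The horizontal axis gives bases from the first base of the upstream hairpin in the direction of transcription, with 1 row per pair. Grey bars are hairpins, red boxes the 5p arms and blue boxes the 3p arms; the gap between the hairpins is 54 bases at Dleu2, 66 in Smc4 and 241 between Mir497 and Mir195a.

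Depth was similar in the 2 libraries. Reads assigned to miRNA genes on the sense strand were 3024662 in replicate 1 and 3464837 in replicate 2, and each level is in CPM, the counts of a gene after its library was brought to a total of 1000000. One count was 0.331 CPM in replicate 1 and 0.289 CPM in replicate 2. Reads that mapped to several places, 27.5% and 29.4% of the files, belong to no gene. Reads of a mature miRNA span the short RNA and not the hairpin, so counts were not divided by hairpin length, and the 2 arms of a hairpin were counted together. As these are whole glands, fewer cells of a type and less miRNA per cell cannot be told apart.

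The family was moderately abundant and its summed level was nearly equal in the 2 libraries. The 6 genes summed to 8976 CPM in replicate 1 and 9085 CPM in replicate 2, or 9030.1 ± 77.2 CPM (SD, n = 2). This was 0.903% ± 0.00772 of all assigned miRNA counts, and reads within the shared miR-16 stretch are not in it. All 6 members reached 2 CPM or more in both libraries, against 364 of 2202 miRNA genes (16.5%). All 6 also had a mean of 500 CPM or more, as did 110 genes of the whole table (5.00%), and 4 of the 6 reached 1000 CPM, as did 81 genes (3.68%).

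Mir16-1, the downstream hairpin of the Dleu2 pair, was the highest member. It had 3148 CPM from 9521 counts in replicate 1 and 2518 CPM from 8726 counts in replicate 2, a mean of 2833 ± 445 CPM (SD, n = 2). Mir16-1 ranked 44th of 2202 genes by mean level, although reads of the shared miR-16 stretch are not in its count. Its neighbour Mir15a, which makes miR-15a, had 2359.6 CPM in replicate 1 and 1851 CPM in replicate 2, a mean of 2105 ± 359.5 CPM and the 53rd rank. Both genes of this pair were somewhat lower in replicate 2, by nearly the same factor.

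Of the Smc4 pair, Mir15b, which makes miR-15b, had 1358 CPM in replicate 1 and 919 CPM in replicate 2, a mean of 1139 ± 311 CPM (SD, n = 2). Mir16-2 was the lowest member by the reads counted, which leave out those within the shared miR-16 stretch. It had 564 CPM in replicate 1 and 582 CPM in replicate 2, a mean of 573 ± 12.8 CPM and the 106th rank. Mir16-1 and Mir16-2 give the same mature miR-16, so their counts cannot be read as the shares of that molecule which each locus makes.

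At the chromosome 11 locus, Mir195a had 751 CPM from 2272 counts in replicate 1 and 2421 CPM from 8387 counts in replicate 2. The mean of 1586 ± 1180.5 CPM (SD, n = 2) therefore describes neither library, and its rank was 91st in replicate 1 and 48th in replicate 2. Mir497, transcribed from the same strand just upstream, had 795 CPM from 2404 counts in replicate 1 and 794 CPM from 2750 counts in replicate 2. Its mean was 794 ± 0.786 CPM, so the libraries were nearly equal. Which member agreed most closely depends on the scaling, since with TMM totals the SD was 11.3 CPM for Mir497 and 5.28 CPM for Mir16-2.

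In the order of mean levels Mir16-1 came first, then Mir15a, Mir195a, Mir15b, Mir497 and Mir16-2. The range of Mir16-1 over the 2 libraries lay above that of Mir15a, that of Mir15b above that of Mir497, and that of Mir497 above that of Mir16-2. The range of Mir195a overlapped those of its neighbours Mir15a and Mir15b and also held that of Mir497. In replicate 1 Mir195a was below Mir497, at 751 against 795 CPM. The place of Mir195a in the order is thus not set by these data. Reads within the shared miR-16 stretch are not in the counts of Mir16-1 and Mir16-2. The places of both genes, with Mir16-2 below Mir497, therefore hold only for the reads counted. Divided by hairpin length, Mir15b came above Mir195a and the other places were the same. With either-strand counts Mir497, whose reads are then listed at 0 because Mir497b lies opposite, came last and Mir16-2 above it.

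**Figure D2:**
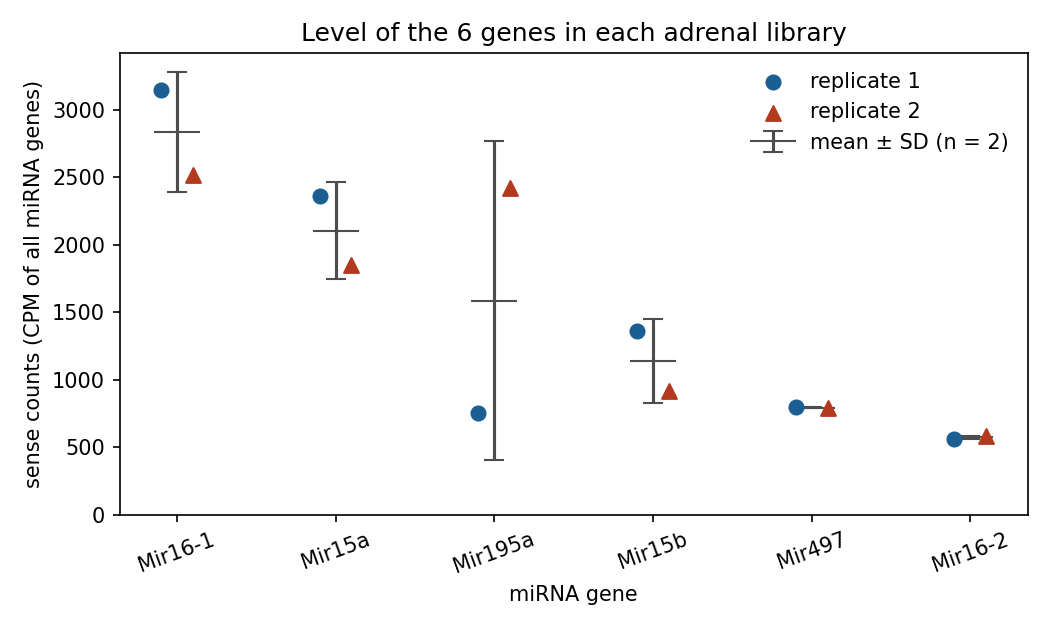
Circles are replicate 1 and triangles replicate 2, in CPM of all miRNA genes on a linear axis from 0, and the line and bar give their mean and SD; genes are in order of mean level. Mir195a has the widest gap, 751 against 2421 CPM, whereas the symbols of Mir497 and Mir16-2 nearly coincide. No symbol holds reads within the shared miR-16 stretch.

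Mir195a was the 1 member that differed between the libraries by 1.5-fold or more. Its ratio of replicate 1 to replicate 2 was 0.310 (95% exact interval 0.296 to 0.325), which is 3.22-fold higher in replicate 2 (3.08 to 3.38). Such intervals reflect the number of reads alone and ignore duplication by PCR, and with 1 library on each side the difference has no replicate check. Among the 299 miRNA genes of 10 CPM or more on average, 49 were higher in replicate 2 by this fold (16.4%) and 42 were higher in replicate 1 (14.0%). Thus 1 of 6 members was past the fold higher in replicate 2, close to the 16.4% of all genes. In the other direction 0 of 6 were past it, against 14.0%. With 6 genes, such counts do not set the family apart. Of the 299 genes, 11 others had a ratio as low as that of Mir195a or lower.

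Mir15b lay just inside the limit, with a ratio of 1.48 (1.41 to 1.55). It passed the limit with some other scalings, at 1.51 with TMM totals, 1.53 with all reads as the total and 1.62 with either-strand counts. It stayed inside with DESeq2 size factors, at 1.48, and with Mir122 taken out of the totals, at 1.41. Mir15a and Mir16-1 had ratios of 1.27 (1.23 to 1.32) and 1.25 (1.21 to 1.29), so their intervals excluded 1 but the difference was below the fold used. Mir16-2 had a ratio of 0.969 (0.908 to 1.03) and Mir497 of 1.00 (0.948 to 1.06), and both intervals include 1. The median difference in either direction was 1.26-fold over the 6 members and 1.28-fold over the 299 genes.

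**Figure D3:**
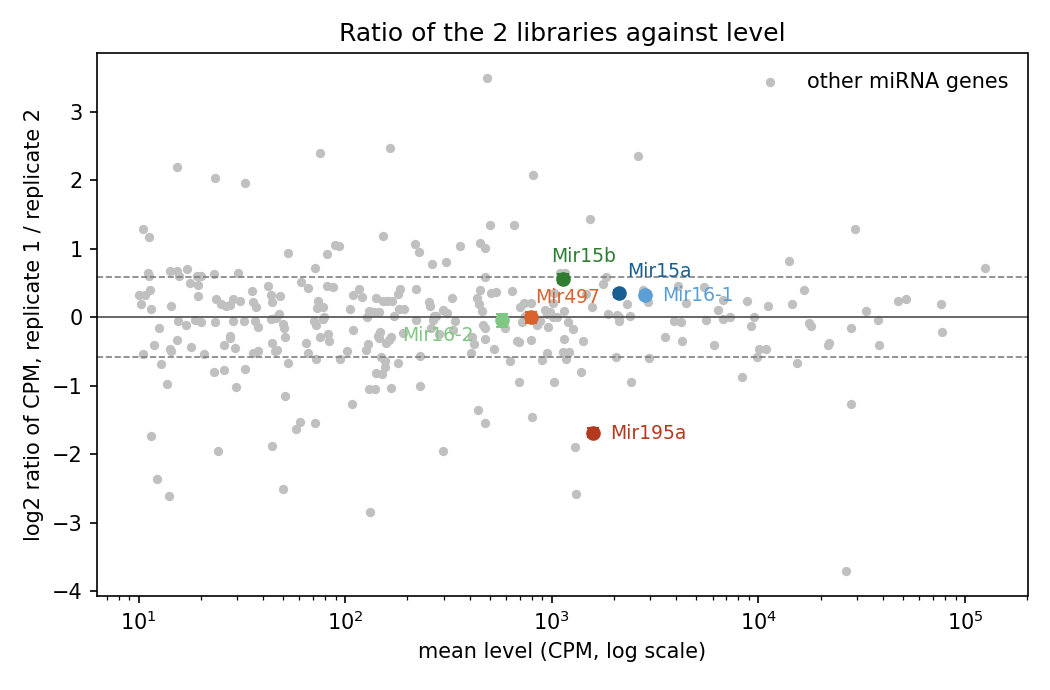
Each point is a miRNA gene of 10 CPM or more on average, with its mean CPM on a log axis and the log2 ratio of replicate 1 to replicate 2; bars on the coloured members are 95% counting intervals and are mostly smaller than the symbols. Dashed lines mark 1.5-fold. Mir195a, at -1.69, lies below the lower line and the other 5 members lie between the lines.

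The pairs differed in how closely their members kept together. Mir15a over Mir16-1 was 0.750 in replicate 1 (0.727 to 0.773) and 0.735 in replicate 2 (0.712 to 0.759), a change of 1.02-fold between the libraries. Mir15b over Mir16-2 was 2.41 (2.28 to 2.55) and 1.58 (1.49 to 1.67), a change of 1.53-fold. Mir195a over Mir497 was 0.945 in replicate 1 (0.892 to 1.00) and 3.05 in replicate 2 (2.92 to 3.19), a change of 3.23-fold. The first 2 of these ratios have miR-16 genes below the line and so are affected by the shared stretch, whereas Mir195a and Mir497 share no stretch of that length with a hairpin on their own strand.

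As a background, 102 pairs of neighbouring miRNA genes on 1 strand, less than 10000 bases apart and both at 10 CPM or more, were treated in the same way. The ratio within the pair changed by 1.5-fold or more between the libraries in 37 of them (36.3%), against 2 of the 3 family pairs. The 102 pairs include the 3 family pairs, which are too few to be set apart from that share. Ordered by the size of the change, Mir195a with Mir497 stood 5th of 102, Mir15b with Mir16-2 stood 35th, and Mir15a with Mir16-1 stood 97th. Many background genes had far fewer counts than the members, which had at least 1705 in each library. Counting error thus adds more to the changes of such pairs, and the share and places were not adjusted for it.

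These differences moved the make-up of the family counts while their sum stayed level. The Dleu2 pair held 61.4% of the family counts in replicate 1 (exact Clopper-Pearson interval 60.8 to 61.9) and 48.1% in replicate 2 (47.5 to 48.7). The Smc4 pair held 21.4% (20.9 to 21.9) and 16.5% (16.1 to 16.9), and the chromosome 11 pair 17.2% (16.8 to 17.7) and 35.4% (34.9 to 35.9). Missing from the Dleu2 and Smc4 pairs are reads within the shared miR-16 stretch, a loss that these intervals do not reflect. Mir195a alone held 8.37% of the family counts in replicate 1 and 26.6% in replicate 2. Without Mir195a, a sum formed after the data were seen, the other 5 genes were at 8224 CPM in replicate 1 and 6664 CPM in replicate 2, a ratio of 1.23 (1.21 to 1.26).

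**Figure D4:**
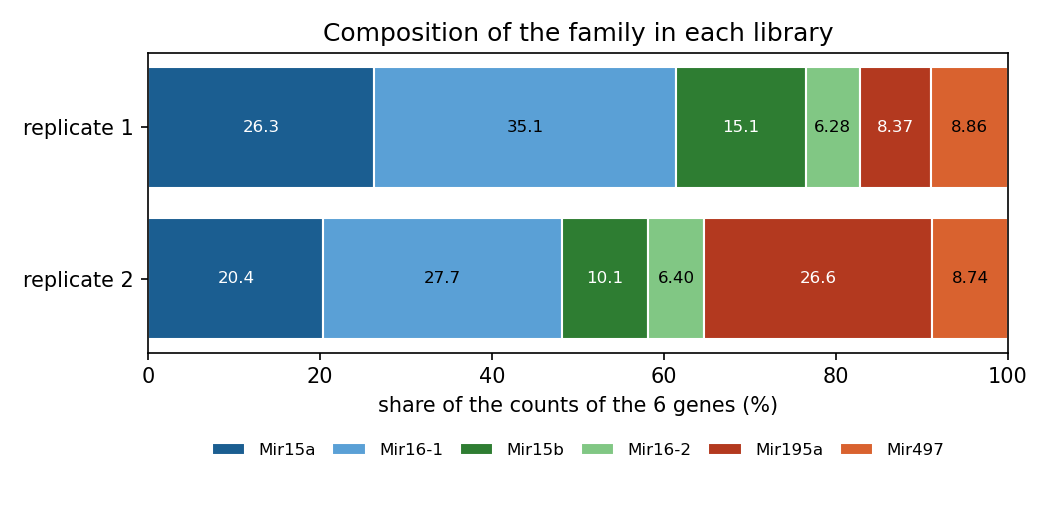
Horizontal bars give the share of each gene, in percent of the summed counts of the 6 genes, for replicate 1 above replicate 2, with blue for the Dleu2 pair, green for the Smc4 pair and red for the chromosome 11 pair. The Mir195a segment is 8.37% in replicate 1 and 26.6% in replicate 2, and the Mir497 segment is 8.86% and 8.74%. No segment holds reads within the shared miR-16 stretch.

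MicroRNAs of other cells also differed between the libraries, and their part in the difference of Mir195a was not tested. Mir122, the main miRNA of hepatocytes, was 13.1-fold higher in replicate 2, at 3786 CPM in replicate 1 and 49474 CPM in replicate 2. Higher in replicate 1 were Mir451a of red blood cells, 2.44-fold, Mir142 of white blood cells, 2.69-fold, and Mir126a of endothelium, 1.64-fold. Mir223 of myeloid cells was 2.88-fold higher in replicate 2. Mir144 of red blood cells, Mir143 and Mir145a of smooth muscle and the neuroendocrine Mir375 had ratios of replicate 1 to replicate 2 between 0.899 and 1.18. All 9 marker genes were detected in both libraries. With Mir122 taken out of the totals, the ratio of Mir195a was 0.296.

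The seed is not confined to the 6 genes. Among RefSeq entries, 11 genes carry AGCAGCA at bases 2 to 8 of a mature arm, in 10 distinct sequences of 1674 (0.597%). The relative that mattered for level was Mir322 of the X chromosome, the mouse counterpart of human MIR424, which is shown with Mir195b and Mir503 so that their bases can be compared with those of the members. The sequence of miR-322 parts from the members right after the seed, that of miR-195b shares a run of 16 bases with miR-195a, and that of miR-503 differs within the seed, at base 8.
miR-322-5p of Mir322: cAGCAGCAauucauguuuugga
miR-195b of Mir195b: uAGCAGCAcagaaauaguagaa
miR-503-5p of Mir503: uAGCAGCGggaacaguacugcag

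Mir322 was at 34036 CPM in replicate 1 and 32072 CPM in replicate 2, a mean of 33054 ± 1389 CPM (SD, n = 2). Of all counts of genes with this seed, the 6 family genes held 20.9% in replicate 1 and 22.1% in replicate 2, or 21.5% ± 0.852, and Mir322 held the rest. Mir195b, Mir6342, Mir6353 and Mir6419 had no count in either library, which allows up to 0.992 CPM in replicate 1 and 0.866 CPM in replicate 2 at 3 counts. Mir503, whose miR-503 shares bases 2 to 7 but not base 8, was at 334 ± 31.6 CPM. Reads within the shared miR-16 stretch are in none of these shares.

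Set beside other clusters linked to the cell cycle, the family sum of 9030.1 ± 77.2 CPM was below that of the cluster of Mir322 and Mir503, 36624 ± 1274 CPM over 7 genes. It was near that of the miR-17-92 cluster, known for promoting proliferation, at 10118 ± 1420 CPM over 6 genes. The p53-linked Mir34 and Mir449 genes summed to 1056 ± 548 CPM over 6 genes. None of these sums holds reads that mapped to several places, such as those within the shared miR-16 stretch. How far this alters their order was not tested. Past 1.5-fold between the libraries were 1 of the 6 family members, 1 of the 7 genes of the Mir322 cluster, 0 of the 4 miR-17-92 genes at 10 CPM or more and 3 of the 4 such Mir34 and Mir449 genes. Over all 299 genes at that level, 42 were past it higher in replicate 1 (14.0%) and 49 higher in replicate 2 (16.4%). The lists are too short to be set apart from these shares.

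For each member, the genes of most similar level were found by the distance between log2(CPM + 1) values in the 2 libraries. Mir16-1 had Mir20a as its nearest gene, at 3139.9 CPM in replicate 1 and 2511 CPM in replicate 2, a distance of 0.00564 on the log2 scale. Mir15b lay nearest to Mir146, at a distance of 0.0636, and Mir16-2 nearest to Mir154, at 0.111. The nearest to Mir497 was Mir341, at 0.142, and the nearest to Mir15a was Mir433, at 0.223. Mir195a had the most distant neighbour, Mir148a, at 548 CPM in replicate 1 and 2047 CPM in replicate 2, a distance of 0.515. Likeness over 2 libraries is a description of levels and says nothing of shared control.

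Messenger RNA was not measured, so the seed can only be set beside the sequence of its known targets. The motif searched was TGCTGCT, the reverse complement of the seed, on the strand of the transcript, in the longest annotated 3′ UTR of each protein-coding gene. It was found in 4228 of 20996 genes (20.1%), and followed by A, the strongest kind of seed match, in 841 (4.01%). All 10 textbook targets listed here held it, and 8 held it followed by A. They are the cyclins Ccnd1, Ccnd2, Ccnd3 and Ccne1, the kinases Cdk6, Chek1 and Wee1, the phosphatase Cdc25a, the transcription factor E2f3 and Bcl2. They are on the list because such sites are known, and their UTRs were longer, with a median of 2264.5 bases against 953.5 over all genes.

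Sites from 4 of them are shown, with the seed match in capitals, to let the match be compared with the seed above. That of Ccne1, the cyclin of S-phase entry, is at chr7:38098023-38098044 on the minus strand, and that of Chek1, a checkpoint kinase, at chr9:36710290-36710311 on the minus strand. That of Bcl2 is at chr1:106540798-106540819 on the minus strand. The match in Ccnd1, at chr7:144930394-144930415 on the minus strand, is followed by G. The sequences are those of GENCODE M21 transcripts on mm10, written in the direction of the transcript.
Ccne1: tcttattttgtaagTGCTGCTa
Chek1: cctggtgaatagagTGCTGCTa
Bcl2: aataagaaaccctgTGCTGCTa
Ccnd1: tgtgcatgccaccaTGCTGCTg

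The 3p arms of the 6 hairpins do not carry the family seed, and all 6 had different seeds. They are CAGUAUU in miR-16-1-3p, CCAAUAU in miR-16-2-3p, CAAUAUU in miR-195a-3p, GAAUCAU in miR-15b-3p, AGGCCAU in miR-15a-3p and AAACCAC in miR-497a-3p. Since the files count whole hairpins, the share of each level that came from a 3p arm, and so lacks the family seed, is not known from these counts. Reads on the opposite strand were 0 at each of the 6 genes in both libraries.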

How the data were processed

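Small RNA libraries of 2 adrenal samples were used. For each library the authors deposited unnormalized counts of reads by miRNA gene, on mm10 with GENCODE M21 per the deposited notes. No source at hand names the aligner or the counter. A file holds 3 count columns without a header (either strand, sense, opposite strand, from the values) and 4 summary rows, which stayed out of totals. Of the reads in the files, 42.2% in replicate 1 and 40.9% in replicate 2 were sense miRNA counts, 27.5% and 29.4% mapped to several places, 23.5% and 23.0% were unmapped and 6.79% and 6.65% lay in no feature. All 2202 gene IDs matched GENCODE M21.

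Sense counts were divided by the miRNA total of the library. Ratios have exact conditional intervals and shares exact Clopper-Pearson intervals at 95%, both for counting error only. The ratio interval was tried on counts simulated with counting error alone. Such counts cannot show how it fares with duplication by PCR or spread between libraries. No test of levels was made, because there is 1 group. The fold for a called difference was 1.5, over genes with a mean of 10 CPM or more. Genes named are the members, all genes with their seed, the gene on the opposite strand of a member, the 2 nearest genes by level, of which the nearer is given, the leading genes of the related lists, the 10 textbook targets and the 9 cell type markers; Mir503 is of the list of its cluster and shares bases 2 to 7 only. The members, lists and rules were chosen with earlier results of these data known. Alternatives were either-strand counts, other totals, edgeR's TMM, DESeq2's size factors, hairpin length, each library alone, other limits and a shorter seed. The labels do not tell whether the SDs measure spread between animals or technical spread.

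Sequences of mature arms and hairpins came from RefSeq on GRCm38.p6, and sharing was checked against the M21 hairpins, not the genome, which was not used here. Scaling used edgeR 4.0.16 and DESeq2 1.42.0 under R 4.3.3, and all else Python 3.11.15 with SciPy 1.17.1, pandas 2.3.3, NumPy 2.4.6 and matplotlib 3.10.9.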

Additional observations from a re-analysis of the deposited data

Results flagged for a closer look

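Counts outside the sense column appeared at 1 gene that overlaps a member. Mir497b, on the minus strand opposite Mir497, had 2404 opposite-strand counts in replicate 1 and 2750 in replicate 2, above the limit that 3 counts set, and no sense count. These are exactly the sense counts of Mir497, so the same reads are listed under both genes.

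Multimapping reads, which no comparison uses, numbered 1972020 in replicate 1 and 2497097 in replicate 2. Their genes are not listed, so the number that are miR-16 reads was not tested. No search for an outlying sample or a difference between groups was made, since there is 1 group of 2 libraries.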

How the results depend on the processing

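All 6 members were detected at limits of 10 CPM and of 1 count as well, and a 6-base seed gave 12 genes in place of 11. The summed level of 9030.1 CPM was 11207 with either-strand counts, 3749 with all reads in the file as the total, 8222 by hairpin length, 9284 without Mir122 in the totals and 7444 without Mir195a; single libraries gave 8976 to 9085. By hairpin length the Smc4 pair held 22.5% of the family in place of 19.0%, Mir16-1 54.9% of its pair in place of 57.4%, and Mir15b 74.1% of its pair in place of 66.0%. With either-strand counts Mir195a held 100% of its pair, because Mir497 overlaps Mir497b and reads lying in 2 genes are set aside as ambiguous, which left Mir497 at 0. The other members had the same counts as in the sense column. The higher sum of 11207 CPM thus reflects a smaller total of assigned counts, not more family reads. Single libraries gave 48.1% to 61.4%, 16.5% to 21.4% and 17.2% to 35.4% for the Dleu2, Smc4 and chromosome 11 pairs, and 57.2% to 57.6%, 61.2% to 70.7% and 48.6% to 75.3% for the leading genes Mir16-1, Mir15b and Mir195a. Members past 1.5-fold numbered 2 in place of 1 with either-strand counts, with all reads as the total and with TMM, where Mir15b joined at 1.62, 1.53 and 1.51. The number stayed at 1 with DESeq2 size factors and with totals without Mir122. The ratio of Mir195a stayed between 0.296 and 0.341 over 5 alternatives, and totals without Mir122 and the sum without Mir195a were chosen after the data were seen. No paired analysis was possible because there is 1 group of 2 libraries and no contrast. Depth limits little here, since each member had at least 1705 counts in each library.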
